A study of Mus musculus with 360 samples.

Results

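Skeletal stem/progenitor cells of the posterior frontal (PF) suture were compared with those of the sagittal (SAG) suture of the mouse skull by full-length single-cell RNA-seq. The members were the cells of PF plate 1, PF plate 2 and SAG plate 1 in which 500 or more genes were read and the reads numbered 10000 or more. They numbered 34, 53 and 30, or 117 of the 325 cells that passed this filter in the whole series, out of 360 deposited. All came from untreated wild type CD-1 mice at postnatal day 3 (pN3) and were sorted as CD51+;CD200+ cells that lacked blood, endothelial, Thy1, 6C3 and CD105 surface proteins. The coronal (COR) suture and the tibial growth plate (GP) made up the rest of the series. Each suture had been cut out with its bone edges, mesenchyme, dura mater and periosteum, and the sort was the only step that selected cells from this mixture. The methods count the mice for all tissues together and no cell was tied to an animal, so each suture counted as 1 sample. Hence no test, p-value or standard error stands beside any difference, and the 2 PF plates gave the only spread.

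Sutures are the fibrous joints of the skull vault and hold the progenitors from which the flat bones grow. In the mouse the PF suture fuses in the first weeks after birth through a cartilage intermediate, whereas the SAG suture does not fuse. A cell that makes cartilage deposits collagens II, IX and XI with link proteins and matrilins, and a bone-forming cell deposits collagen I, which it mineralizes with the help of alkaline phosphatase. Fibrous suture cells lay down collagens III, V and XIV, elastic fibres and microfibrils.

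Reads other than the ribosomal RNA gene Rn45s totalled 5915244 on PF plate 1, 24384274 on PF plate 2 and 6873714 on SAG plate 1, with medians per cell of 125830, 511698 and 188426. Rn45s took 30.6%, 25.8% and 24.5% of all reads on these plates and was left out of every total. It took 86.8% of the reads of SAG plate 2, which was therefore left out of the comparison, and the SAG values below rest on a single plate. No 2 of the compared cells held identical counts. For 1 cell of SAG plate 1 the title and source said SAG while the description named a PF plate. That cell had 5659 reads per 1000000 (CPM) of Col2a1, 904 of Lect1 and 0 of Egfl6, Sfrp2 and Acta2. Xist was read without a Y chromosome gene in 9, 15 and 6 cells of PF plate 1, PF plate 2 and SAG plate 1, a Y gene without Xist in 10, 22 and 16, and both in 0 cells, so each plate held cells of both sexes.

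A level is given as CPM, the reads of a gene summed over the cells of a plate, divided by all summed reads of the plate and multiplied by 1000000. A ratio is log2((CPM + 1)/(CPM + 1)), so differences of weak genes are understated. Of 24015 genes in the tables, 10143 reached 10 CPM on at least 1 of the 3 plates. A gene was called when both PF plates differed from SAG plate 1 by at least 2-fold in the same direction. By this rule 1216 genes, or 12% of those tested, were higher in PF and 1215, again 12%, were higher in SAG. The same 2-fold separated PF plate 1 from PF plate 2 for 4323 genes, or 42.6%, so a difference on a single plate carries little weight. Both ratios of a gene share SAG plate 1, so agreement of the PF plates does not cover the spread between SAG plates. Against SAG plate 1, PF plate 1 alone differed by 2-fold for 5001 genes and PF plate 2 alone for 4150, and 310 genes lay 2-fold on opposite sides. Median ratios to SAG plate 1 over all tested genes were -0.32 for PF plate 1 and 0.08 for PF plate 2. Counting intervals (95%, exact Poisson for reads and Clopper-Pearson for shares of cells) cover counting error only, because reads were counted without molecular identifiers.

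**Figure D1:**
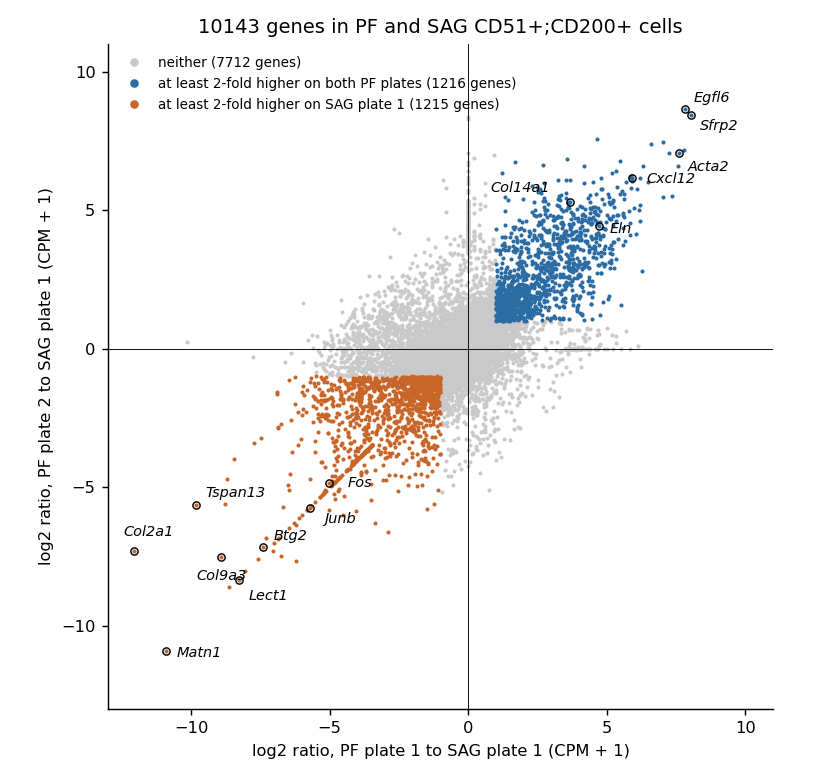
Each point is 1 of 10143 genes, placed by its log2 ratio of PF plate 1 (horizontal) and PF plate 2 (vertical) to SAG plate 1. The 1216 genes higher on both PF plates are blue, the 1215 higher on SAG plate 1 are orange, and genes without a PF read line up on the lower diagonal. Egfl6, Sfrp2 and Acta2 lie far up on both axes, and Col2a1, Col9a3, Lect1, Tspan13, Btg2 and Matn1 far down.

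PF and SAG cells differed in opposite sets of genes. PF cells carried genes that were nearly unread on SAG plate 1, led by Egfl6, Shisa3 and Acta2. The contractile class as a whole did not differ by 2-fold. SAG cells carried the cartilage program, led by Lect1, Susd5, Col9a3 and Col2a1, together with immediate early genes. None of the 30 named genes was read in every cell of a plate.

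Egfl6, an EGF-repeat protein secreted into matrix, stood first in PF. It had 224 CPM (212 to 237) on PF plate 1, 397 CPM (389 to 405) on PF plate 2 and 0 reads on SAG plate 1, which allows up to 0.436 CPM there. Against that limit Egfl6 was at least 514-fold higher on PF plate 1 and at least 909-fold higher on PF plate 2. It was read in 14 of 34 and 24 of 53 PF cells and in 0 of 30 SAG cells, which allows a share with a read of up to 10%. Among positive cells the median was 508 and 805 CPM and the highest cell reached 3654 and 6032. Both PF plates therefore held a mixture of Egfl6-positive and Egfl6-negative cells in similar proportions. COR plates stood between, at 42.6 and 170 CPM. Egfl6 lies at chrX:162960939-163023652 (mm9, minus strand, GENCODE M1), as a protein-coding gene.

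Sfrp2, which encodes a secreted Wnt antagonist, had 338 CPM (324 to 354) on PF plate 1 and 441 CPM (433 to 450) on PF plate 2. On SAG plate 1 it had 2 reads, or 0.291 CPM (0.0352 to 1.05), in a single cell. It was read in 38.2% and 39.6% of PF cells. On PF plate 1 a single cell gave 51.5% of its reads, and the rule for named genes leaves it out for that, so it is given as a marker. Sfrp2 and Egfl6 were often read together, both in 9 cells of PF plate 1, where 14 had Egfl6 and 13 had Sfrp2. On PF plate 2 both were read in 18 cells, of 24 and 21.

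Acta2, smooth muscle actin, had 736 CPM (715 to 758) on PF plate 1, 502 CPM (493 to 511) on PF plate 2 and 2.76 CPM (1.66 to 4.32) on SAG plate 1, where 1 cell of 30 held all its 19 reads. It was read in 41.2% and 30.2% of PF cells. Its partner Myl9, the regulatory light chain of myosin II, had 510, 662 and 7.71 CPM in the same order and was read in 64.7%, 58.5% and 10% of cells. Of the Acta2-positive PF cells, 13 of 14 and 13 of 16 also had Myl9. Myl9 was read more widely, and 9 of 22 and 18 of 31 Myl9-positive cells had no Acta2. On PF plate 2, 2 cells without a read of Col1a1 had summed contractile genes of 70919 and 67037 CPM and gave 55.5% of the Acta2 and 44.8% of the Myl9 reads. Without them, a choice made after seeing the data, Acta2 had 229 CPM and Myl9 373 CPM on that plate, and both were still called. Acta2 and Egfl6 were both read in 6 and 9 cells of PF plates 1 and 2. Acta2 lies at chr19:34315580-34329826 on the minus strand and Sfrp2 at chr3:83570243-83578238 on the plus strand (mm9).

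**Figure D2:**
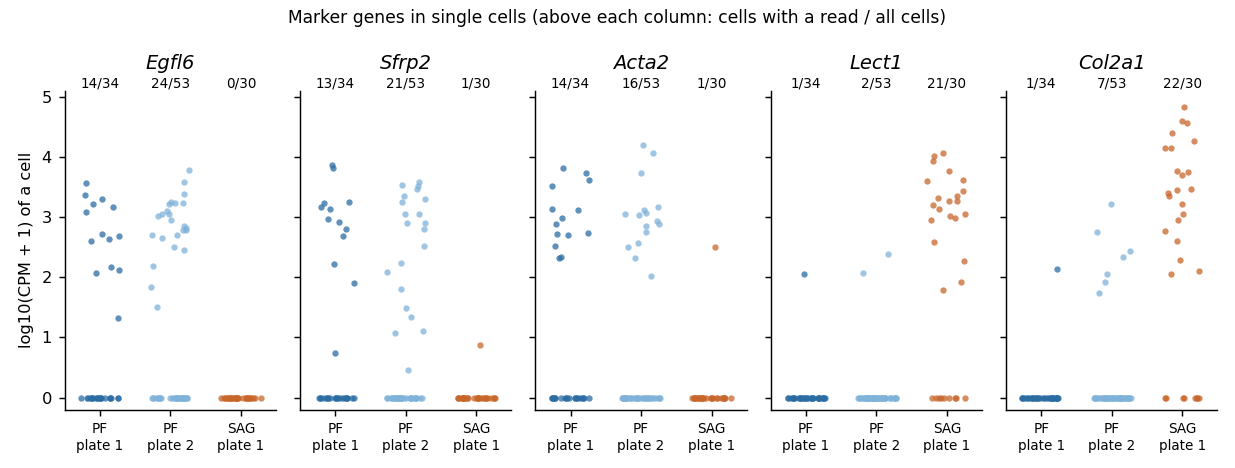
Each point is a cell, with log10(CPM + 1) of the gene on the vertical axis and the 3 plates on the horizontal axis; the fraction above each column gives cells with a read of all cells. Egfl6, Sfrp2 and Acta2 were read in 0, 1 and 1 of 30 SAG cells, Lect1 and Col2a1 in 21 and 22 of them.

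The remaining named genes higher in PF had varied functions. Shisa3, an inhibitor of Wnt and FGF receptor maturation, had 220 and 143 CPM in PF and 0 reads on SAG plate 1, at least 503-fold and 329-fold higher. Cd248, the stromal surface protein endosialin, had 191 and 96.7 CPM in PF and likewise 0 reads in SAG. Cxcl12, the chemokine of perivascular and marrow stroma, had 556, 661 and 8.15 CPM on PF plate 1, PF plate 2 and SAG plate 1. All 3 genes were named for the size of this difference, so the gap between their counting intervals follows from the choice.

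Serping1, the C1 inhibitor of the complement system, had 321, 363 and 5.96 CPM in that order, and Cp, the copper-carrying ferroxidase ceruloplasmin, had 220, 191 and 7.13 CPM. Eln, the elastin of elastic fibres, had 336, 280 and 11.9 CPM, and Col14a1, a fibril-associated collagen, had 327, 995 and 24.6 CPM. The matrix protein gene Abi3bp had 109, 118 and 2.18 CPM. Fmo1, a flavin-containing monooxygenase, had 150 and 200 CPM in PF and 1 read in SAG. Atp1b1, a subunit of the sodium pump, had 156, 333 and 8.44 CPM, the scaffold protein gene Akap12 had 137, 99.9 and 6.11 CPM, and C1qtnf2 had 92, 156 and 5.82 CPM.

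On SAG plate 2, whose Rn45s share set it apart, the PF-raised genes did not all stay low. Acta2 and C1qtnf2 had 0 CPM there, and Sfrp2, Egfl6 and Myl9 had 4.35, 4.93 and 13.6 CPM, below both PF plates. Fmo1 (454 CPM), Cd248 (456 CPM) and Abi3bp (259 CPM) were above both PF plates, and Col14a1 (695 CPM) lay between them. Shisa3 (100.3 CPM) and Serping1 (251 CPM) were below both PF plates but not by 2-fold on both. For these 6 genes the 2-fold difference from SAG plate 1 was not seen against SAG plate 2.

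**Figure D3:**
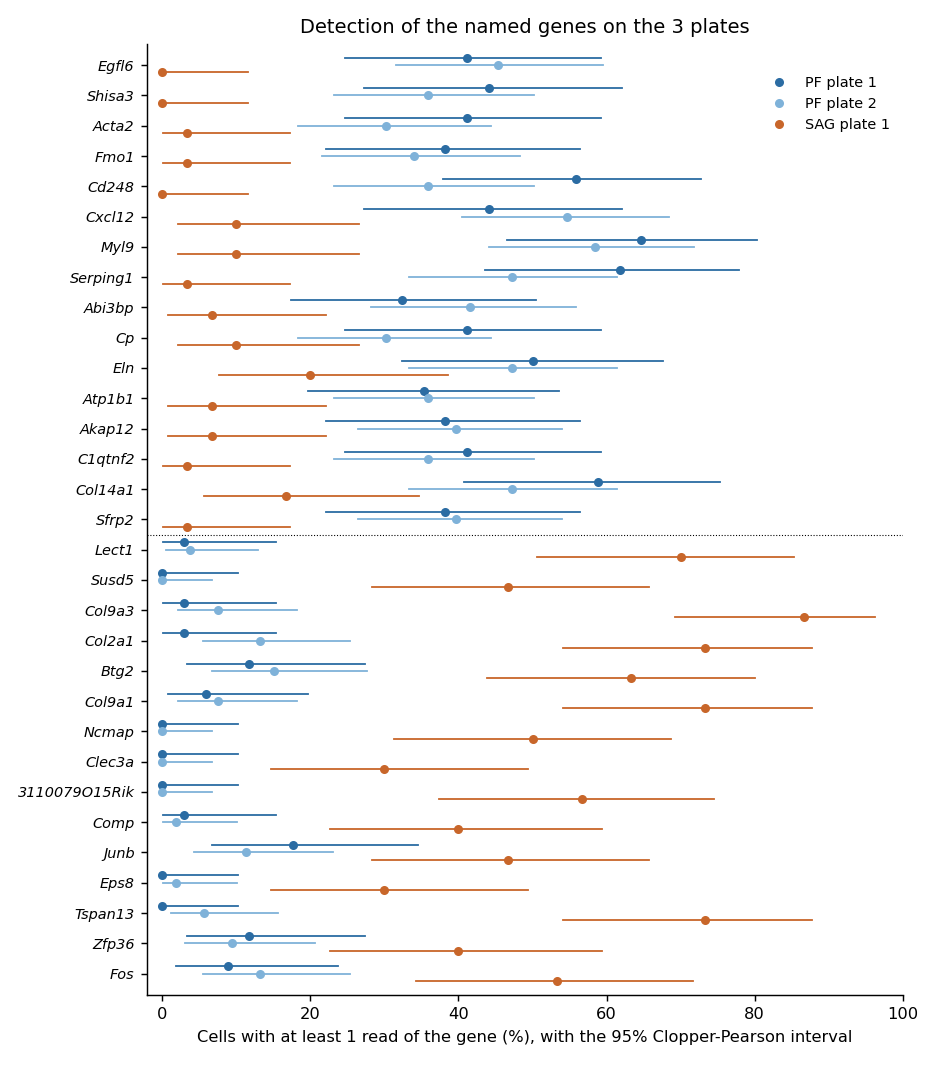
Share of cells with at least 1 read of a gene on PF plate 1 (dark blue), PF plate 2 (light blue) and SAG plate 1 (orange), with 95% Clopper-Pearson intervals. The 15 named genes higher in PF and Sfrp2 stand above the dotted line with SAG shares of 0 to 20%, and the 15 higher in SAG stand below it with SAG shares of 30% to 86.7%.

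In SAG plate 1 the cartilage genes were the mirror image. Lect1 (chondromodulin), a cartilage glycoprotein that keeps vessels out, had 2554 CPM (2516 to 2592) there, against 7.27 CPM (5.26 to 9.79) on PF plate 1 and 6.81 CPM (5.81 to 7.93) on PF plate 2. It was read in 21 of 30 SAG cells, 1 of 34 and 2 of 53 PF cells. Col2a1, the major collagen of cartilage, had 9413 CPM (9341 to 9486) on SAG plate 1, 1.18 CPM on PF plate 1 and 58.7 CPM on PF plate 2. It was read in 22, 1 and 7 cells. The cell with most Col2a1 reads gave 48.3% of those of SAG plate 1 and reached 68234 CPM, and the median of the positive SAG cells was 2828 CPM. Lect1 lies at chr14:80037497-80061977 and Col2a1 at chr15:97806033-97835155, both on the minus strand (mm9).

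The collagen IX genes, whose 3 chains coat collagen II fibrils, followed the same order. Col9a3 had 8.79, 24.9 and 4730 CPM on PF plate 1, PF plate 2 and SAG plate 1, Col9a1 had 15.9, 13 and 2220 CPM, and Col9a2 had 49, 17.2 and 1160 CPM. Col9a3 was read in 86.7% of SAG cells. Comp, a pentameric cartilage matrix protein, had 8.79, 2.58 and 726 CPM. Susd5, Ncmap, Clec3a and 3110079O15Rik (a cartilage-secreted protein also called Snorc) had 0 reads on both PF plates and 263, 127, 113 and 76.5 CPM in SAG, at least 518-fold, 251-fold, 223-fold and 151-fold higher than PF plate 1. Tspan13, a tetraspanin, had 0, 17.3 and 905 CPM, and the actin regulator Eps8 had 0, 0.943 and 101.3 CPM.

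The cartilage matrix list, written for this comparison with earlier results of the data known, had 20 members, all tested. Of them 14 were higher in SAG and 1, Epyc (epiphycan), was higher in PF, beside a background of 12% in each direction. Median ratios of the list were -4.56 for PF plate 1 and -5.74 for PF plate 2, or -4.56 and -5.80 with genes lacking a read set at the 3-read limit. The list summed to 2059 and 2391 CPM in PF and 27056 CPM in SAG. Its 14 members were Col2a1, Col9a1, Col9a2, Col9a3, Col11a2, Hapln1, Matn1, Matn3, Comp, Prg4, Lect1, Ucma, Cytl1 and 3110079O15Rik. Matn1, a matrilin of mature cartilage, had 0 reads in PF and 1934 CPM in SAG, where 7 cells carried it and 1 gave 54.9%. Acan, the aggrecan core protein, had 58, 125 and 232 CPM on PF plate 1, PF plate 2 and SAG plate 1 and was not called. Col11a1, at 639, 976 and 1199 CPM, was also read on all plates and not called.

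Most SAG cells took part in it. At least 6 of the 20 cartilage genes were read in 23 of 30 SAG cells, 2 of 34 cells of PF plate 1 and 8 of 53 of PF plate 2. In SAG, Col2a1 was read with Col9a3 in 22 cells, which is every Col2a1-positive cell, and with Lect1 in 20. Collagen I was not exclusive with it, since 18 of the 22 Col2a1-positive cells had Col1a1. Ibsp (bone sialoprotein), a late osteoblast gene, was read in 5 SAG cells, of which 1 had Col2a1. After thinning to 100000 reads, which left out 12, 5 and 5 shallower cells of PF plate 1, PF plate 2 and SAG plate 1, Col2a1 was read in 72% of 25 SAG cells and in 0% of 22 and 12.5% of 48 PF cells. The shares without thinning were 2.94%, 13.2% and 73.3% in the order of the plates.

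Among the chondrocyte regulators, 4 of 10 tested members were higher in SAG and 1 (Runx3) in PF, beside 12% of all tested genes in each direction. Sox9, the master factor of cartilage, had 15.9, 48.2 and 124 CPM on PF plate 1, PF plate 2 and SAG plate 1, and was read in 14.7%, 28.3% and 60% of cells. Sox5 had 0, 38.9 and 118 CPM, and Wwp2, a ubiquitin ligase that hosts a cartilage microRNA, had 76.9, 138 and 383 CPM. Sox6 had 5.92, 43.1 and 45.4 CPM, so its PF plates differed more from each other than plate 2 did from SAG. Of the hypertrophic chondrocyte list 2 of 6 tested members, Panx3 (349, 214 and 66.3 CPM) and Alpl, were higher in PF and 0 in SAG, beside the same 12%. Its members Col10a1 and Ihh had 0 reads on all 3 plates, and Alpl is also counted among the bone matrix genes below. Mmp13, the collagenase of late chondrocytes and osteoblasts, had 8169, 727 and 5670 CPM. Mmp13 thus gave no separation of the sutures.

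On SAG plate 2 the same genes did not move as 1 block. Col2a1 (7214 CPM) and Tspan13 (1015 CPM) were about as far above PF there as on SAG plate 1. Lect1 (9953 CPM) and Sox9 (3448 CPM) were further above PF than on SAG plate 1. Col9a3 (103 CPM), Col9a1 (124 CPM) and Comp (57.7 CPM) were lower than on SAG plate 1, though above PF. Ncmap had 0 CPM there and 3110079O15Rik 2.42 CPM. The list summed to 23173 CPM on that plate, and to 923 and 1067 CPM on the COR plates.

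Immediate early genes, which cells switch on within minutes of a stimulus, moved with the cartilage genes. Of 23 tested members 18 were higher in SAG and 0 in PF, beside 12% of all tested genes in each direction. Median ratios were -4.18 and -4.04. They summed to 684 and 909 CPM on the PF plates and 21864 CPM on SAG plate 1. Fos, a subunit of the AP-1 factor, had 218, 244 and 7064 CPM on PF plate 1, PF plate 2 and SAG plate 1. Its partners Jun and Junb had 48.5, 60.6 and 1501 CPM and 19.1, 18.6 and 1059 CPM. Btg2, an antiproliferative gene, had 32.5, 38.6 and 5657 CPM, and Zfp36, which directs the decay of AU-rich mRNAs, had 15, 8.24 and 527 CPM. In PF the Fos reads were from few cells, 94.7% from 1 cell on plate 1 and 65.7% from 1 cell on plate 2.

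Within SAG plate 1 both sets were read in the same cells. All 16 Fos-positive and all 19 Btg2-positive cells had Col2a1, as did 13 of 14 Egr1-positive cells. The median number of immediate early genes read was 11 of 25 in the 23 cells with at least 6 cartilage genes and 0.5 in the 4 cells with 1 or 2. Conversely, 6 cells had Col2a1 without Fos, and 8 had neither. Of 15 heat shock genes 2 (13.3%) were higher in SAG, beside 12% of all tested genes, and 0 in PF. Dnajb1 had 21.3, 89.9 and 742 CPM on PF plate 1, PF plate 2 and SAG plate 1. The part of the immediate early response in the cartilage difference, or the reverse, was not tested.

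**Figure D4:**
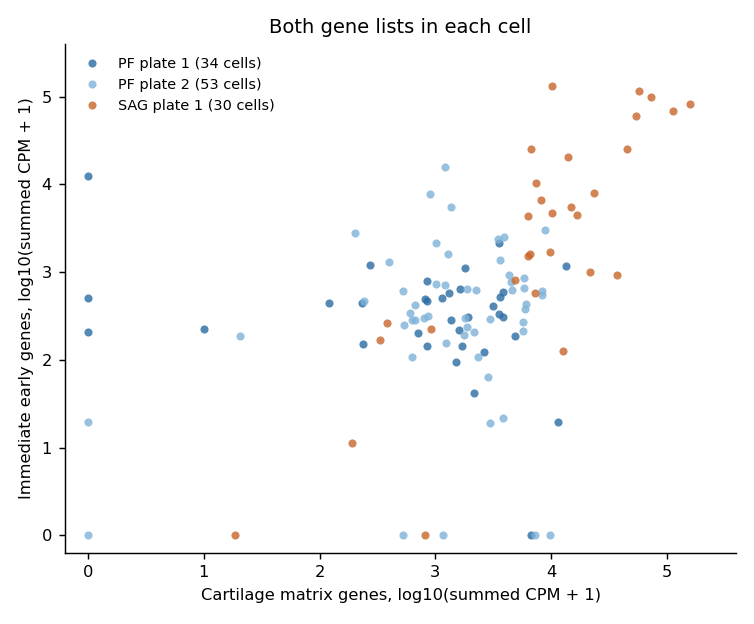
Each point is a cell, with the summed CPM of the 20 cartilage matrix genes on the horizontal axis and of the 25 immediate early genes on the vertical axis, both as log10(CPM + 1). SAG plate 1 cells (orange) extend to the upper right, where few of the 34 and 53 PF cells (blue) lie.

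Myl9, higher in PF, and Zfp36, higher in SAG, both held a CArG box, the letters bound by serum response factor, upstream of their start. The box was searched as CC, 6 bases of A or T, and GG, a pattern that reads the same on either strand. It was found in 1.63% of 32851 RefSeq promoters of 300 bases (250 before to 50 after the start, GRCm38.p6), or for 1.81% of 27025 genes. Of the named genes 8 in each direction had an entry, and the box was in 1 of them in each, while of the contractile list it was in 4 of 21 genes (Myl9, Myl6, Cnn2 and Vcl) and of the immediate early list in 2 of 19 (Egr2 and Zfp36). The stretches around both boxes are printed because no other named gene with an entry held one, with the box in capitals. They matched once in mm9, at chr2:156600999-156601088 (plus strand) and chr7:29164278-29164345 (minus strand). The boxes begin at -161 and -58 from the RefSeq starts and at -117 and -31 from the gene starts of GENCODE M1 in mm9.
Myl9: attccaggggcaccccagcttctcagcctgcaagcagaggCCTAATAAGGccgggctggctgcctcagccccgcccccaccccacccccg
Zfp36: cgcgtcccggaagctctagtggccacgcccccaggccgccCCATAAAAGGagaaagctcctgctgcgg
A match is a description of letters, and binding was not measured.

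Contractile genes as a class were only in part higher in PF. Of 20 tested members 7 were higher in PF and 0 in SAG, beside 12% of all tested genes in each direction. Median ratios were 0.27 and 0.68 (0.36 and 0.68 with unread genes at the limit). The class summed to 6160, 6569 and 5897 CPM on PF plate 1, PF plate 2 and SAG plate 1. The class sum thus differed by less than 2-fold, and the 7 members were Acta2, Tagln, Myl9, Tpm2, Actg2, Mylk and Csrp1. Tagln (transgelin) had 18.1, 53 and 6.4 CPM and Tpm2, a tropomyosin, had 97.4, 181 and 46 CPM. Actg2, the gamma smooth muscle actin, was read in 1 and 3 PF cells. Without the cell with most reads of each gene on each plate, 5 members remained higher in PF, and 5 also without the 2 cells of PF plate 2 with the highest contractile sums. Pericyte genes were weak, with 2 of 7 tested members, Rgs5 and Notch3, higher in PF (1 without those 2 cells), and 1 cell gave 98.9% of the Rgs5 reads of PF plate 2.

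Bone matrix genes were higher in PF for 9 of 17 tested members and in SAG for 0, beside 12% of all tested genes in each direction. Median ratios were 1.60 and 1.41 beside -0.32 and 0.08 over all genes. The class summed to 302560, 186830 and 113020 CPM on PF plate 1, PF plate 2 and SAG plate 1, so the sum was not past 2-fold on plate 2. Of the SAG sum, 47.4% came from 1 cell, and the medians per cell were 182440, 123860 and 22949 CPM in that order. Col1a1, the main chain of collagen I, had 112520, 75393 and 29167 CPM on PF plate 1, PF plate 2 and SAG plate 1, and Col1a2 had 66256, 53760 and 21843 CPM. Alpl, alkaline phosphatase, had 1351, 920 and 252 CPM and was read in 85.3%, 69.8% and 20% of cells. Bglap (osteocalcin), a product of mature osteoblasts, had 1443, 1294 and 188 CPM, although its near-identical copy Bglap2 could share its reads. Ifitm5, which is expressed in osteoblasts, had 347, 348 and 48.3 CPM. The class was therefore not limited to collagen I.

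Other bone genes were not called, although for Spp1 and Ibsp the SAG level rested mostly on 1 cell. Sparc (osteonectin) had 47772, 30472 and 28522 CPM in the same order, Spp1 (osteopontin) had 68300, 20662 and 29201 CPM, with 94% of the SAG reads in 1 cell, and Ibsp had 1256, 1228 and 2418 CPM, with 66.2% in 1 cell. The osteoblast factors Runx2 (53.1, 56.2 and 97.3 CPM) and Sp7 (237, 229 and 170 CPM) were not called either. Within PF, Egfl6 and Ibsp were read in largely separate cells. On plate 1 they shared 1 cell, of 14 and 12, and on plate 2 they shared 1, of 24 and 15.

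Elastic fibre and microfibril genes had 11 of 20 tested members higher in PF and 1 (Loxl3) higher in SAG. The share over all tested genes was 12% in each direction. Median ratios of the list were 1.60 and 1.55. Mfap4, a microfibril-associated protein, had 1215, 1934 and 111 CPM on PF plate 1, PF plate 2 and SAG plate 1, and Mfap2 had 1302, 3011 and 367 CPM. Fbn2, the fibrillin of developing tissue, had 136, 174 and 10.6 CPM. Fbln1 and Fbln2, fibulins that bind elastin and basement membranes, had 280, 811 and 29.4 CPM and 200, 152 and 8.29 CPM. Lox, which crosslinks elastin and collagen, had 1260, 980 and 394 CPM. Fbn1 had 261, 173 and 90.9 CPM and was not called, so the class again moved only in part.

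Fibrous collagens had 4 of 13 members higher in PF and 0 in SAG. Beside this and the next 2 lists stands the 12% of all tested genes called in each direction. Col3a1 had 11061, 10158 and 3247 CPM on PF plate 1, PF plate 2 and SAG plate 1 and was read in about as many SAG cells (90%) as PF cells (91.2% and 88.7%). Small leucine-rich proteoglycans had 3 of 12 higher in PF, among them Dcn (decorin) at 3410, 3507 and 846 CPM, and 1 higher in SAG. Matricellular genes were split, with 6 of 17 higher in PF and 4 in SAG. The SAG members were Fn1 (1477, 1532 and 4433 CPM), Cyr61, Ctgf and Thbs1, and among the PF members was Vcan (versican) at 152, 158 and 14.7 CPM. Tnmd, a marker of tendon and ligament, had 311, 315 and 77.7 CPM.

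**Figure D5:**
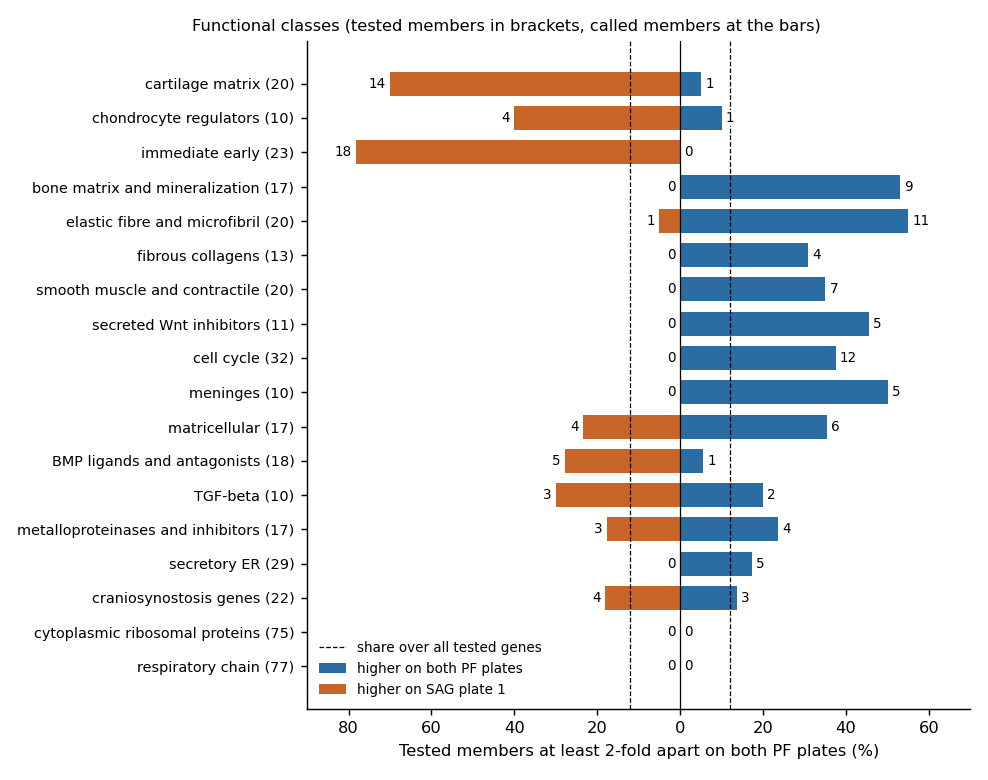
Share of the tested members of 18 gene lists called higher on both PF plates (blue, to the right) or on SAG plate 1 (orange, to the left), with the number called at each bar and the number tested in brackets. Dashed lines give the 12% of all tested genes in each direction.

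Wnt signalling keeps progenitors in sutures and is held back by secreted inhibitors. Of 11 tested inhibitors 5 were higher in PF and 0 in SAG. Beside the inhibitors, and the ligands and response genes below, stands the 12% of all tested genes called in each direction. Beside Sfrp2 they were Wif1 (790, 899 and 386 CPM on PF plate 1, PF plate 2 and SAG plate 1), Dkk1 (64.6, 48.4 and 22.8 CPM), Sfrp1 (12.3, 67.8 and 4.66 CPM) and Dkk2 (19.9, 46.2 and 0 CPM). Of 19 Wnt ligands 3 were tested, and Wnt5a, Wnt5b and Wnt9a were each higher in PF, at levels of at most 32.3 CPM on either plate. The Wnt target Axin2, which feeds back on the pathway, had 0.169, 1.68 and 14.4 CPM, and Lef1, a nuclear effector, had 0, 6.36 and 20.8 CPM, both higher in SAG but in only 3 and 5 of 30 cells. They were 2 of 9 tested Wnt response genes, and 2 others, Nkd2 (23.5, 46.4 and 0 CPM) and Lgr5 (5.92, 31.3 and 0 CPM), were higher in PF. Without the cell with most reads of each gene 1 member remained in each direction. With SAG plate 2 in place of plate 1 the summed ligands were lower in PF, since Wnt5a had 96.9 CPM there.

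Of 18 tested BMP genes 5 were higher in SAG and 1, Fstl1, in PF, or 4 and 2 without the cell with most reads of each gene. The list sum ran the other way, at 3987, 4288 and 3340 CPM on PF plate 1, PF plate 2 and SAG plate 1, with Fstl1 alone at 2338, 2682 and 1102 CPM. Bmp2 had 8.79, 11.3 and 69 CPM on PF plate 1, PF plate 2 and SAG plate 1, Gdf5, the joint-forming ligand, had 0, 17.9 and 176 CPM, and the BMP target Id1 had 14.2, 19.8 and 78 CPM. Of 10 TGF-beta genes 3 were higher in SAG, including Tgfb2 (65.3, 48.6 and 218 CPM), and 2 in PF. FGF genes had 2 of 9 higher in SAG and 0 in PF, and hedgehog genes 1 of 9 in each direction. Notch genes had 3 of 6 higher in PF (Notch3, Jag1 and Heyl) and 0 in SAG. Over all tested genes the share was 12% in each direction. The Notch members were from few cells, and summed Notch genes were lower in PF when SAG plate 2 took the place of plate 1. Genes mutated in craniosynostosis had 3 of 22 higher in PF (Cdc45, Jag1 and Ezh2) and 4 in SAG (Tcf12, Msx2, Gli3 and Smad6). Cdc45, a DNA replication factor, had 17.8, 7.55 and 0 CPM and was read in 1 and 2 PF cells, and Ezh2, a histone methyltransferase, had 11.8, 37.1 and 2.04 CPM. Jag1, a Notch ligand, had 62.5, 100.2 and 30.4 CPM. Tcf12 had 52.1, 60.5 and 166 CPM, and Twist1, which was not called, had 18.1, 24.1 and 15.6 CPM. These shares are near the background, so the disease genes did not stand apart as a list.

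Mmp9, a gelatinase of osteoclasts and invading cartilage, had 17.2, 17.6 and 7222 CPM on PF plate 1, PF plate 2 and SAG plate 1 and was read in 1, 3 and 21 cells. Of the 8 osteoclast genes it was the only one called, and 5 of them had 0 reads on all 3 plates. Mmp14, which activates other metalloproteinases at the cell surface, had 810, 932 and 3263 CPM. Of the insulin-like growth factor binding proteins, Igfbp3 (242, 240 and 11.5 CPM) and Igfbp2 (482, 326 and 34 CPM) were higher in PF and Igfbp7 (133, 307 and 657 CPM) in SAG. Creb3l1, the collagen-secretion factor of osteoblasts, had 359, 354 and 40.6 CPM. In the secretory list 5 of 29 (17.2%) were higher in PF, beside 12% of all tested genes, and 0 in SAG.

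Cell cycle genes had 12 of 32 tested members higher in PF and 0 in SAG, at low levels, beside 12% of all tested genes in each direction. Cdc20, an activator of mitotic exit, had 68.8, 74.1 and 0.145 CPM on PF plate 1, PF plate 2 and SAG plate 1, with 91.2% and 95.4% of the PF reads in 1 cell each. Mki67 was read in 2 and 2 PF cells and 0 SAG cells. Without the cell with most reads of each gene 1 member remained higher in PF, so the count rested on a cell or so per plate. Cytoplasmic ribosomal protein genes (75 tested) and respiratory chain genes (77 tested) had 0 members called in either direction, and their summed ratios lay between -0.36 and 0.16.

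The genes of the sorted surface proteins and markers of excluded cells were checked on the same plates. Those of Thy1 and 6C3 are not reported here. Itgav, which encodes CD51, had 68.3, 94.7 and 96.6 CPM on PF plate 1, PF plate 2 and SAG plate 1, and Cd200 had 160, 184 and 287 CPM, with neither gene called. Endothelial genes summed to 10.8, 32.2 and 19.1 CPM with 6 of 12 unread on all 3 plates, haematopoietic genes to 52.7, 23.6 and 8.29 CPM with 5 of 14 unread, and skeletal muscle genes to at most 3.49 CPM with 8 of 10 unread. Eng, which encodes the excluded protein CD105, was called higher in SAG, as 1 of 3 tested endothelial genes. Cd74 was called higher in PF, as 1 of 2 tested haematopoietic genes. Without the cell with most reads of each gene, 0 members of either list remained called. Of the erythroid genes, 8 of 9 in the table were unread. Neural and glial genes summed to 0.507, 246 and 85.7 CPM, with 94.8% of those of PF plate 2 in 1 cell. These sums are small beside those of the matrix classes.

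Genes of the meninges, which the dissection included as dura mater, were higher in PF only in part. Their sum lay above SAG plate 1 on PF plate 1 and below it on PF plate 2. Of 10 tested members 5 were higher in PF (Crabp2, Aldh1a2, Foxd1, Slc47a1 and Cldn11) and 0 in SAG, beside 12% of all tested genes in each direction. The list summed to 6551, 3218 and 4149 CPM on PF plate 1, PF plate 2 and SAG plate 1. Foxd1, a forkhead factor, had 18.4, 26.6 and 0.145 CPM and was read in 5, 12 and 1 cells. Cldn11, a tight junction protein, had 258, 99.5 and 5.96 CPM and was read in 9, 3 and 1 cells. No cell was identified as meningeal, and the part of such cells in the PF-raised matrix and stromal genes was not tested.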

How the data were processed

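Single-cell libraries were made from cells sorted into plates, in the SMART-seq2 manner without molecular identifiers. The authors deposited raw read counts per gene symbol and cell in 8 tables, 1 for each plate of a group, with 24015 genes and no spike-in or mitochondrial rows. The submitters' processing notes name STAR 2.5.3a, HTSeq, Seurat 2.3.0, R 3.4.4 and the build mm9. The annotation and the use of strand in counting are not given in the sources used here, so overlapping genes and near-identical copies may share reads. Groups were taken from each cell's title, and 0 columns were left without a cell.

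Counts of passing cells were summed per plate, Rn45s was left out, and sums were scaled to CPM with Python 3.11.15, pandas 2.3.3 and scipy 1.17.1. Genes with at least 10 CPM on at least 1 of the 3 plates were tested at a pseudocount of 1, and were called at a log2 ratio of at least 1 in the same direction on both PF plates. The sum over a plate weights cells by depth. Read counts ranged from 5915244 to 24384274 per plate. The calling step was tested on simulated counts with planted changes. TMM factors for an alternative scaling came from edgeR 4.0.16 in R 4.3.3. Wells of the same name recurred on the PF plates and SAG plate 1 (17 and 20), so each suture had its own plates, and plate and suture cannot be told apart. No doublet caller was run on cells sorted singly.

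Named genes were up to 15 in each direction, ordered by the smaller of the 2 log2 ratios, with at least 50 CPM and a read in at least 30% of cells on the plates where they were high and no cell above 50% of their reads there. The 5 markers and members of the 42 gene lists with the highest levels were added. The members, lists and rules were chosen with earlier results of these data known. Hindlimb factors (Hox genes with Tbx4 and Pitx1) had 0 of 16 members tested. Of the list members P3h1, Pkm2 and Ahsp were not found by symbol. The counts of the osteoblast factor list are not reported here. Intervals at 95% and the 3-read limit for a count of 0 cover counting error only.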

Additional observations from a re-analysis of the deposited data

How the results depend on the processing

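No paired analysis was possible because the plate numbers name plates, not animals, and SAG had 1 plate in the comparison. Of 17 alternatives, those that left the counts of 1216 genes higher in PF and 1215 higher in SAG within 1.5 times were other scalings, other cell filters, means per cell, thinning, no filter on low genes, leaving out the cell with most reads of each gene (1062 and 1029, of which 750 and 796 were among the first calls) leaving out the cell with the conflicting description and, chosen after seeing the data, leaving out the 2 cells of PF plate 2 with the highest contractile sums (1189 and 1223). A minimum of 50 CPM gave 436 and 514, and a pseudocount of 10 gave 606 and 808. With the SAG plates summed the counts were 1887 and 2242, of which 766 and 573 were among the first calls. With SAG plate 2 in place of plate 1 they were 4356 and 2611, of which only 722 and 435 were among the first calls. Of the first calls, 167 higher in PF and 219 higher in SAG were then called in the opposite direction. With the SAG plates summed, 97 and 0 were. PF plate 2 alone gave 2229 higher in PF, and PF plate 1 alone gave 2968 higher in SAG. The mean of the 2 median ratios moved from -0.12 to 0.81 with SAG plate 2 and to 0.04 with TMM factors. Of the 31 genes followed, 515 of 527 repeats stayed past 2-fold in their first direction. These genes were named for the size of their difference from SAG plate 1 or given as markers. All alternatives but those with SAG plate 2 set PF against SAG plate 1 alone, so this agreement follows largely from the choice. The direction turned with the SAG plates summed for Fmo1 (-0.65), Cd248 (-1.01) and Abi3bp (-0.46), and for the summed Wnt ligands (-0.0854) and Notch genes (-1.74). With SAG plate 2 in place it turned for Fmo1 (-1.38), Cd248 (-1.74), Abi3bp (-1.18) and Col14a1 (-0.29), and for Wnt ligands (-0.70), Notch genes (-2.41) and adipocyte genes (1.41). The cause was not tested, and Rn45s left SAG plate 2 a median of 875 genes per cell.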

Other observations

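A few further genes and lists were read on the same plates. Tgfbi, which encodes a collagen-binding matrix protein, had 270, 211 and 746 CPM on PF plate 1, PF plate 2 and SAG plate 1. Lpl, lipoprotein lipase, was the only adipocyte gene that could be tested and had 3.55, 44.3 and 180 CPM in that order, while Adipoq, Fabp4, Plin1, Retn and Cfd had 0 reads on all 3 plates. S100b, a calcium-binding protein of glia and chondrocytes, had 0.338, 15 and 76.4 CPM and was read in 2, 8 and 11 cells. Lepr, the leptin receptor of stromal cells, had 15.7, 32.1 and 0.291 CPM, and was read in 3, 4 and 1 cells.

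Of 13 tested skeletal and suture stem cell markers 2 (Lepr and Cxcl12) were higher in PF and 1 (Axin2) in SAG, beside 12% of all tested genes in each direction. Without the cell with most reads of each gene 1 and 0 remained. Of 15 cranial factors 3 (Tfap2b, Foxc2 and Foxd1) were higher in PF and 2 (Msx2 and Foxc1) in SAG. Of 19 glycolysis and hypoxia genes 1 (Ero1l) was higher in PF and 1 (Bnip3) in SAG. Of 4 osteoclast-regulating signals 1 (Cxcl12) was higher in PF and 1 (Tnfsf11, which encodes RANKL) in SAG, at 0, 1.60 and 15.7 CPM, and without the cell with most reads 1 and 0 remained.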
